A study of Homo sapiens with 8 samples.

Results

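Immediate early genes are transcribed within minutes of a growth or stress signal without new protein synthesis, and most of their transcripts are short-lived. The 10 genes described here are the immediate early response genes IER2, IER3, IER5 and IER5L, the transcription factor genes FOS, JUNB and EGR1, the antiproliferative genes BTG1 and BTG2, and DUSP1, whose product removes phosphate from MAP kinases. They were taken as all non-control probes of the arrays whose RefSeq identifier belongs to one of these genes, which gave 13 of 41000 probes and 10 of 16557 named genes. Of the 13 probes, 10 were detected in at least 4 of the 8 array channels, and 8 probes of 7 genes also passed the filter on dye differences and are called kept below, among 15529 kept probes in all. One probe of IER5 brought the gene into the study's own list of miR-155 target genes, which was made on these same samples, so IER5 was selected on the IP/T ratios of that probe, which are given as a description, and the other 9 genes were added as further members of the early response.

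The cells were ST486, an established Burkitt lymphoma (BL) line of B-cell origin. They had been transduced with the MXW-PGK-IRES-GFP vector, either empty (EV-ST486) or carrying miR-155 (miR-155-ST486), so both vectors encode GFP and the miRNA is ectopic. The study's methods name sorting of GFP-positive cells for checking the overexpression, and do not say whether the array cells were sorted. RNA came from the total (T) cell lysate and from material immunoprecipitated (IP) with an antibody against Ago2, which gave 4 RNA samples. Every sample was labelled once with each dye, Cy3 and Cy5, and on each of the 4 arrays the IP RNA of a vector competed with its own total RNA. The labellings of a sample are technical repeats, so each condition has n = 1, no test between conditions was possible, and every error below is that of labelling and hybridization only. The arrays lay on 2 slides and 0 slides held both vectors, so slide and vector cannot be told apart, whereas IP and total RNA of one vector shared their arrays. Between 14094 and 22161 probes were detected per channel. Of 8 B-cell and Burkitt lymphoma marker genes on the arrays, 7 were detected in at least 4 channels and PAX5 in 0, with summed signals between 23366 and 28303. The summed signals were between 217 and 266 for the T-cell markers, 1 of 4 detected, between 110 and 176 for the myeloid markers, 1 of 5 detected, and between 78.3 and 172 for the erythroid markers, 1 of 3 detected. KRT8 led the epithelial and fibroblast markers, 2 of 4 detected, with summed signals between 444 and 894, and CD3D, CD3E and CD2 were detected in 0 channels.

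Ago2 is the protein that holds a miRNA on its target transcripts. Transcripts that carry many Ago2 complexes therefore reach a higher signal in the IP than in the total fraction, and their IP/T ratio lies above 1. A miRNA finds its targets mainly through its seed, bases 2 to 8, and the ectopic miRNA is shown here because it is the only designed difference between the vectors. Its mature strand lies at chr21:25573983-25574006 on the plus strand (GRCh38.p14, RefSeq), with the seed in capitals.
hsa-miR-155-5p: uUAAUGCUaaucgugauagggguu
A transcript pairs with all bases of this seed through the letters AGCATTA.

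The 10 genes differed widely in Ago2-IP enrichment. BTG2, EGR1 and DUSP1 were far more abundant in the IP than in the total fraction of both vectors, JUNB was moderately enriched, IER2 lay mildly above an IP/T ratio of 1 (1.34 to 1.64), IER5L and BTG1 lay close to it, and FOS and IER3 were near background. Among the kept probes, IER5 probe 1 differed most in IP/T ratio between the vectors, but it was selected on those ratios, and IER5 probe 2 went the opposite way. JUNB probe 1 went from 2.71 in EV to 1.86 in miR-155 cells. An IP/T ratio of 2 or more counted as enriched. In EV-ST486 cells 3 of the 8 kept probes were enriched (JUNB probe 1, EGR1 and BTG2), as were 12.1% of all kept probes. In miR-155-ST486 cells 3 of 8 were enriched (IER5 probe 1, EGR1 and BTG2), as were 12.2% of all. The place of IER5 probe 1 in the miR-155 counts and median given here was fixed in advance by its selection. The median IP/T ratio of the 8 probes was 1.54 in EV and 1.60 in miR-155 cells, beside 0.900 and 0.882 over all kept probes. With the filter on dye differences left out, 10 probes remained, and DUSP1 joined the probes past this fold, which made 4 of 10 in EV (13.6% of all probes) and 4 of 10 in miR-155 cells (11.8%).

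**Figure D1:**
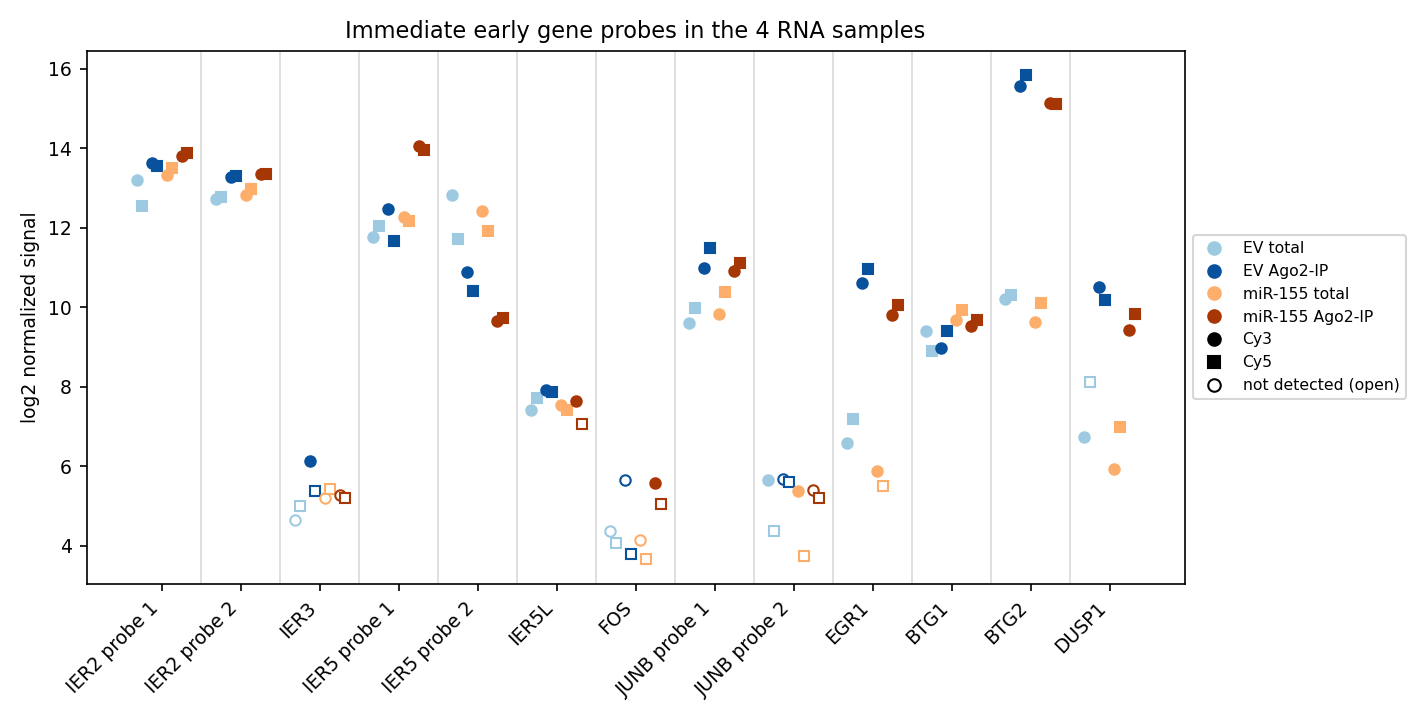
Log2 normalized signal of the 13 probes of the 10 genes in the 4 RNA samples, with a circle for the Cy3 and a square for the Cy5 labelling and open symbols where the probe was not detected. The IP signals of BTG2, EGR1 and DUSP1 stand above their total signals in both vectors, those of IER5 probe 1 in miR-155 cells only, and IER3, FOS and JUNB probe 2 lie near background.

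**Figure D2:**
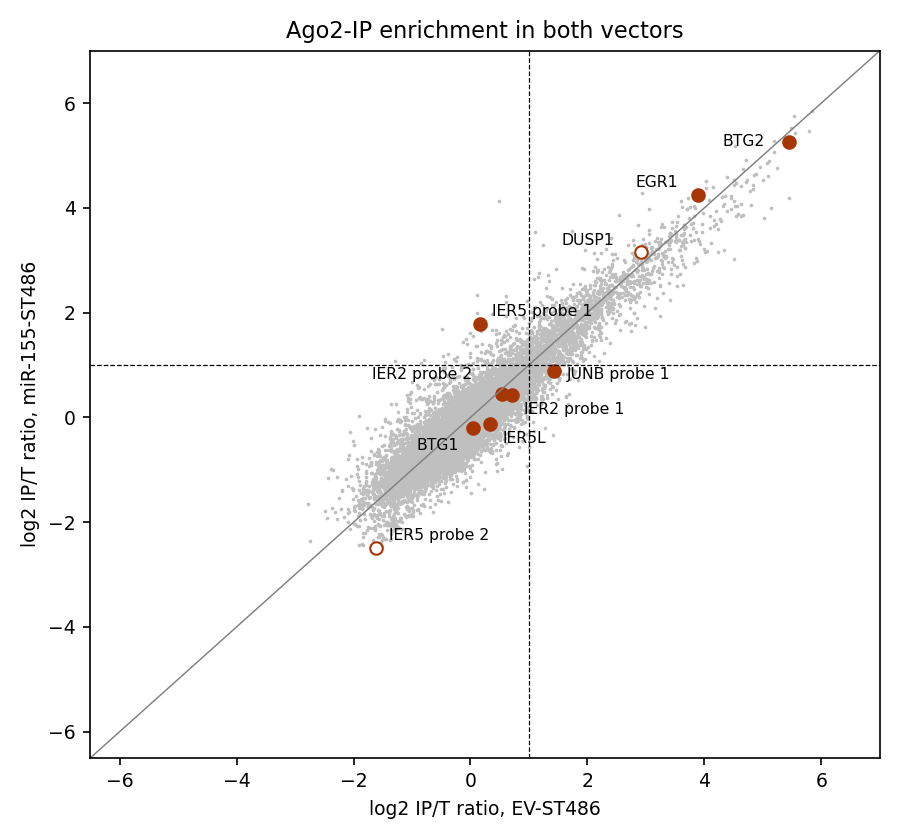
Log2 IP/T ratio in EV-ST486 cells (x axis) and in miR-155-ST486 cells (y axis) for all 15529 kept probes (grey) and for the immediate early genes (filled, kept; open, removed by the dye filter). Dashed lines mark an IP/T ratio of 2 and the solid line equal ratios; IER5 probe 1 lies above the line of equal ratios, and BTG2, EGR1 and DUSP1 lie near it at the upper right.

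IER5, a nuclear protein that binds phosphatase 2A and heat shock factor 1, was measured by 2 probes with the same RefSeq identifier, NM_016545. The normalized signals of IER5 probe 1, given as Cy3 and Cy5 labelling, were 3503 and 4211 in the EV total fraction, 5645 and 3238 in the EV IP fraction, 4946 and 4640 in miR-155 total RNA and 17104 and 15889 in the miR-155 IP fraction. Both labellings of the miR-155 IP fraction stood above all other labellings of the probe, and the EV IP labellings spanned those of both total fractions. Its IP/T ratio was 1.11 in EV cells (1.34 with IP RNA in Cy3 and 0.924 with IP RNA in Cy5) and 3.44 in miR-155 cells (3.69 and 3.21). The ratio of these ratios, miR-155/EV, was 3.09 (2.75 and 3.48), rank 17 of the 15529 kept probes. It was the only one of the 8 kept probes whose miR-155/EV ratio reached 2, as did 1.15% of all kept probes. Both this ratio and the IP/T ratio of miR-155 cells reached 2 for 0.438% of all kept probes. IER5 probe 1 was selected for reaching both. The IP fraction carried the difference. The IP signal was 3.86-fold higher in miR-155 than in EV cells (3.03 in Cy3 and 4.91 in Cy5), rank 9 of the kept probes, and the total signal 1.25-fold higher (1.41 and 1.10).

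IER5 probe 2 showed the reverse. Its signals were 7196 and 3357 in the EV total, 1887 and 1367 in the EV IP, 5515 and 3863 in the miR-155 total and 800 and 843 in the miR-155 IP fraction. Both IP fractions lay below both total fractions in all labellings, and the miR-155 IP fraction was the lowest. The IP/T ratio was 0.327 in EV cells (0.562 and 0.190) and 0.178 in miR-155 cells (0.207 and 0.153), and the latter was lower than that of any kept probe. The miR-155/EV ratio was 0.544 (0.368 and 0.805), with an IP signal 0.511 times and a total signal 0.939 times that of EV cells. The probe was detected in all 8 channels but was removed by the dye filter, because its EV total labellings differed 2.14-fold where 2-fold was allowed. By normexp IER5 probe 2 stayed below an IP/T ratio of 1, up to 0.597 in EV and between 0.248 and 0.473 in miR-155 cells. The total signals of either probe differed little between the vectors, and the probes parted in the IP fractions. Where each probe lies on the transcript was not analysed here.

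The distance between the IER5 probes was set beside that of all 2285 RefSeq identifiers with 2 probes detected in at least 4 channels. In miR-155 cells the IP/T ratios of the IER5 probes were 19.3-fold apart, against a median of 1.29-fold over these identifiers. In EV cells they were 3.41-fold apart (median 1.39), and the miR-155/EV ratios were 5.68-fold apart (median 1.23). IER5 was selected on these ratios of probe 1, so the distances are a description and nothing is drawn from them. IER2, the other gene with both probes detected, had IP/T ratios 1.13-fold apart in EV and 1.02-fold apart in miR-155 cells.

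**Figure D3:**
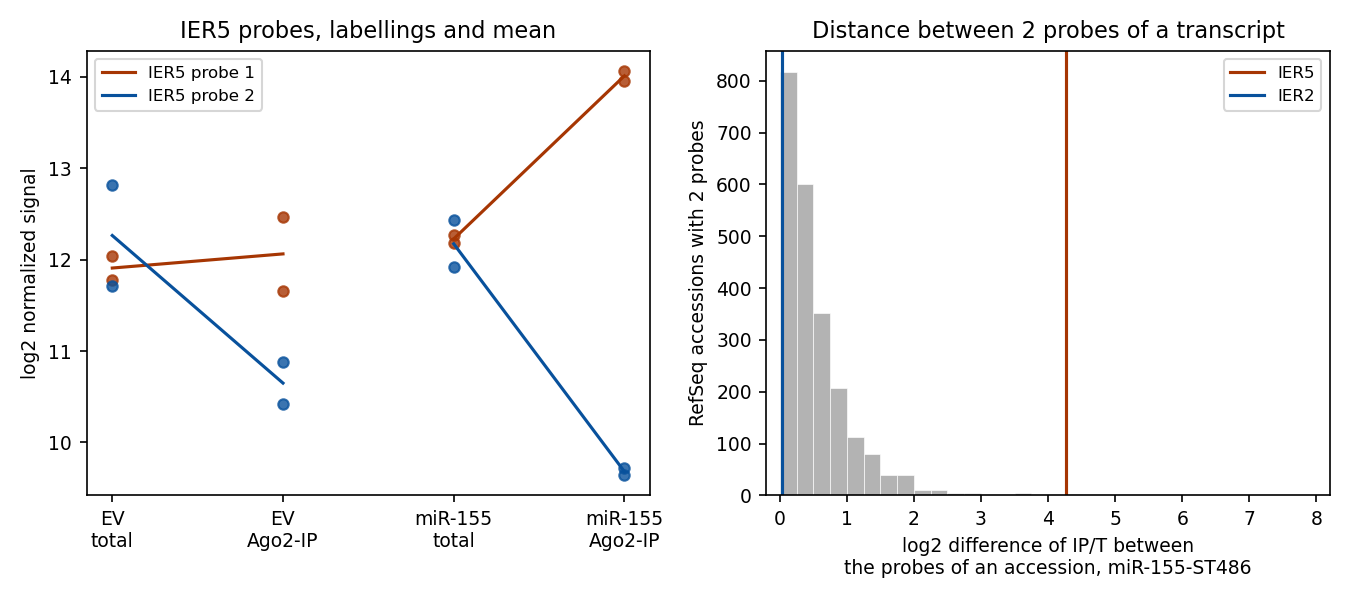
Left, log2 normalized signal of the IER5 probes in the 4 RNA samples, with a point for each labelling and lines joining the means of the total and IP fraction of a vector. Right, number of RefSeq identifiers with 2 probes (y axis) by the log2 difference between their IP/T ratios in miR-155-ST486 cells (x axis), where IER5 lies at 4.27, IER2 at 0.03 and the median at 0.37.

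Likeness to IER5 probe 1 was measured as the Euclidean distance between log2 signals in the 4 samples, each probe centred on its own mean, with no test, and IER5 itself was chosen for this pattern. The 5 nearest of the kept probes with a gene name belonged to HOMEZ (distance 0.18), TCF4 (0.19), HOMEZ again on another probe (0.40), PPA2 (0.40) and TEX19 (0.47). TCF4, a basic helix-loop-helix transcription factor, went from an IP/T ratio of 0.994 in EV to 3.06 in miR-155 cells (miR-155/EV 3.08, with 2.78 for IP RNA in Cy3 and 3.41 for IP RNA in Cy5). PPA2, a mitochondrial pyrophosphatase, went from 1.36 to 3.02 (miR-155/EV 2.23, with 2.10 and 2.36 by orientation). TEX19 reached 2.47 in miR-155 cells (miR-155/EV 1.65) and had the largest total change of these probes, 1.59-fold.

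IER2 and IER5L did not share this pattern. IER2, a nuclear protein of the early growth response, was detected in all 8 channels on both of its probes. The signals of IER2 probe 1 were 9382 and 6012 in the EV total, 12654 and 11928 in the EV IP, 10348 and 11678 in the miR-155 total and 14361 and 15084 in the miR-155 IP fraction. IER2 probe 2 read 6800 and 7031, 9877 and 10108, 7182 and 8028, and 10463 and 10367 in the same order. On both probes the IP signals were above the total signals of the same vector in every labelling. The IP/T ratios were 1.64 and 1.45 in EV and 1.34 and 1.37 in miR-155 cells for probes 1 and 2, with miR-155/EV ratios of 0.818 (0.584 and 1.15 by orientation) and 0.949 (0.928 and 0.971). The EV total labellings of probe 1 differed 1.56-fold, more than its total fractions differed between the vectors (1.46).

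IER5L, a homologue of IER5, was dim. Its signals were 171 and 210 in the EV total, 241 and 236 in the EV IP, 188 and 171 in the miR-155 total and 199 and 134 in the miR-155 IP fraction, where it was detected in 1 of 2 labellings. The samples overlapped except for the EV IP fraction, which was the highest in both labellings. IP/T was 1.26 in EV (1.15 and 1.38) and 0.911 in miR-155 cells (1.16 and 0.716), and the miR-155/EV ratio of 0.723 split into 1.01 with IP RNA in Cy3 and 0.518 with IP RNA in Cy5. IER3, which shares little with IER5 but the name and acts in survival and MAP kinase signalling, had signals between 25.3 and 70.7 and was detected only in the Cy3 labelling of the EV IP fraction. Its EV total fraction was not well above background, so the EV IP/T ratio of IER3 is given as at least 1.07-fold and no other ratio is given.

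Of the transcription factors, EGR1 was the most enriched in the IP fraction. EGR1 is a zinc-finger factor induced through serum response factor, which binds CArG boxes, a CC and a GG around a run of A and T. Its promoter held a pair of them in the window from 250 bases before to 50 bases after the transcription start. They are shown here because, within this window, none of the other promoters found for these genes held one. Both lie on the plus strand of GRCh38.p14 (RefSeq), at chr5:138465364-138465393 and chr5:138465386-138465415, with the CArG box in capitals and its first base 105 and 83 bases before the start.
EGR1 distal CArG box: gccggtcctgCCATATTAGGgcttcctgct
EGR1 proximal CArG box: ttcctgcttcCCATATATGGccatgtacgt

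The EGR1 signals were 96.0 and 146 in the EV total, 1558 and 1996 in the EV IP, 58.7 and 45.7 in the miR-155 total and 899 and 1069 in the miR-155 IP fraction. The 4 samples did not overlap in any labelling: the IP fractions were far above the total fractions, and EV was above miR-155 in each. The IP/T ratio was 14.9 in EV cells (10.7 and 20.8), rank 77 of the kept probes, and 18.9 in miR-155 cells (19.7 and 18.2), rank 34. The miR-155/EV ratio was 1.27, with 1.84 and 0.875 on different sides of 1 by orientation. The total signal in miR-155 cells was 0.438 times that in EV cells (0.612 in Cy3 and 0.313 in Cy5), and the IP signal 0.556 times (0.577 and 0.535). The total fraction was dim, and in miR-155 cells it was detected in 1 of 2 labellings. With normexp background correction (offset 50) the EGR1 ratios were nearer 1. IP/T was between 1.67 and 4.01 in EV and between 1.43 and 3.11 in miR-155 cells, and the total change between 0.720 and 0.943. The values nearest 1 came with high local backgrounds left in place. At the same offset and with quantile normalization, replacing those backgrounds gave IP/T ratios of 4.01 in EV and 2.88 in miR-155 cells.

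JUNB, an AP-1 subunit, was enriched to a lesser degree. The signals of JUNB probe 1 were 782 and 1008 in the EV total, 2012 and 2871 in the EV IP, 918 and 1335 in the miR-155 total and 1918 and 2201 in the miR-155 IP fraction. All IP labellings exceeded all total labellings, and the vectors overlapped within each fraction. IP/T was 2.71 in EV (2.00 and 3.67) and 1.86 in miR-155 cells (1.44 and 2.40). The miR-155/EV ratio was 0.686 (0.719 and 0.653), below 1 in both orientations. Over all kept probes the log2 miR-155/EV ratio repeated poorly between orientations (correlation 0.316), against 0.816 for IP/T in EV and 0.908 in miR-155 cells. Small departures of miR-155/EV ratios from 1 are therefore given as a description only. By normexp the IP/T ratio of JUNB probe 1 was between 1.46 and 2.46 in EV and between 1.24 and 1.82 in miR-155 cells. The lowest values came with high local backgrounds left in place. JUNB probe 2, with the same identifier, was detected in 2 channels, the Cy3 labellings of both total fractions, with signals between 13.3 and 51.6 over all 8 channels, and its IP fractions were not well above background. No ratio is given for it.

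FOS, the partner of the JUN proteins in AP-1, was near background. It was detected in 1 channel, the Cy3 labelling of the miR-155 IP fraction, and its signals ranged from 12.7 to 50.1. The bound was an IP/T ratio of at least 1.12-fold in miR-155 cells. No bound is given between the IP fractions. In Cy3, the dye of the detected labelling, the IP signal was 47.5 in miR-155 and 50.1 in EV cells. No total level of FOS can be given for either vector.

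BTG2 was the most enriched of the 10 genes. BTG2 and BTG1 restrain cell division and bring the CCR4-NOT deadenylase to transcripts, and BTG2 is also a p53 target. Their probes behaved very differently. BTG2 had signals of 1186 and 1266 in the EV total, 48742 and 58624 in the EV IP, 785 and 1112 in the miR-155 total and 35973 and 35457 in the miR-155 IP fraction. The IP fractions stood more than an order of magnitude above the total fractions in every labelling, and the miR-155 labellings lay below the EV labellings in both fractions. The IP/T ratio was 43.6 in EV (38.5 and 49.4) and 38.2 in miR-155 cells (32.3 and 45.1), rank 7 of the kept probes in both. The miR-155/EV ratio was 0.876 (0.840 and 0.914). With normexp background correction the BTG2 ratio stayed the highest of the 10 genes, between 17.4 and 32.8 in EV and between 12.9 and 30.3 in miR-155 cells. Of the 9 promoters searched, that of BTG2 was the only one with the letters GCGGGGGCG, a form of the site that EGR factors bind. These letters were found in 5.02% of all 27305 promoters, and no other form of the site was searched. The BTG2 match lies at chr1:203305358-203305386 on the plus strand (GRCh38.p14), with these letters in capitals and the first of them 151 bases before the start.
BTG2 promoter: ggctggggtgGCGGGGGCGgggaaaagcg

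BTG1 showed no enrichment. Its signals were 678 and 479 in the EV total, 502 and 681 in the EV IP, 817 and 974 in the miR-155 total and 741 and 821 in the miR-155 IP fraction. The IP and total fractions of each vector overlapped, and the miR-155 labellings lay above the EV labellings in both fractions. IP/T was 1.03 in EV (1.05 and 1.00) and 0.875 in miR-155 cells (0.761 and 1.00), and the miR-155/EV ratio was 0.853 (0.726 and 1.00).

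DUSP1, an early phosphatase that switches off MAP kinases, was enriched in the IP fraction but did not pass the dye filter, since its EV total labellings differed 2.62-fold. Its signals were 106 and 279 in the EV total, detected in 1 of 2 labellings, 1461 and 1156 in the EV IP, 61.3 and 127 in the miR-155 total and 693 and 904 in the miR-155 IP fraction. The IP labellings were above all total labellings, and the total labellings of the vectors overlapped. The IP/T ratio was 7.54 in EV (5.24 and 10.9) and 8.97 in miR-155 cells (5.46 and 14.7), which made a miR-155/EV ratio of 1.19 (1.04 and 1.36). By normexp background correction the DUSP1 ratios were between 1.39 and 2.58 in EV and between 1.35 and 2.64 in miR-155 cells. DUSP1 is a known target of the cyclic AMP factor CREB, and its promoter was the only one of the 9 searched with the full CREB element TGACGTCA, which 1.98% of all promoters held. The element lies at chr5:172771303-172771330 on the minus strand (GRCh38.p14), in capitals, with its first base 125 bases before the start.
DUSP1 promoter: gcagggcgggTGACGTCAccgccccgtc

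The total fraction addresses whether transcript levels differed between the vectors. In such bulk samples fewer expressing cells and less RNA per cell cannot be told apart. Of the 8 kept probes, 1 was at least 1.5-fold higher in miR-155 cells (BTG1; 5.37% of all kept probes) and 1 was lower by as much (EGR1; 4.12%). BTG1 was 1.57-fold higher (1.20 in Cy3 and 2.04 in Cy5), and between 1.17-fold and 1.52-fold higher by normexp. EGR1 was lower by more than 2-fold, as were 0.380% of kept probes, but stood at 0.612 in Cy3. In Cy5 its miR-155 total labelling was not detected, and by normexp the change was between 0.720 and 0.943. IER2 probe 1 stood at 1.46 (1.10 and 1.94) and IER2 probe 2 at 1.10 (1.06 and 1.14), so the larger value rested on the Cy5 labellings of 1 probe. BTG2 was at 0.763 (0.662 and 0.878), IER5L at 0.948 and JUNB probe 1 at 1.25 (1.17 and 1.32). DUSP1, outside the dye filter, was at 0.512 (0.576 and 0.455), but in Cy5 its EV total labelling was not detected. With that filter left out EGR1 and DUSP1 were the 2 of 10 probes lower by 1.5-fold, beside 4.81% of all probes. The median change of the 8 kept probes was 1.17, beside 1.01 over all kept probes. With normexp the total change of DUSP1 was between 0.690 and 0.965.

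In the IP fraction 1 of 8 kept probes was at least 1.5-fold higher in miR-155 cells (IER5 probe 1, beside 6.42% of all kept probes) and 1 lower (EGR1, beside 6.16%). IER5 probe 1 was selected on a ratio that this IP change enters. Its place in the counts of this paragraph was therefore all but fixed in advance. BTG2 was just short of the fold at 0.668 (0.738 in Cy3 and 0.605 in Cy5), IER5L was at 0.686 (0.825 and 0.569), JUNB probe 1 at 0.855 and BTG1 at 1.34 (1.48 and 1.21). For EGR1, BTG2 and DUSP1 the IP and total signals were both lower in miR-155 cells, by like amounts, so that their IP/T ratios differed little between the vectors. DUSP1 had an IP signal 0.609 times that of EV cells (0.475 and 0.782). With the dye filter left out, 3 of 10 probes were lower by 1.5-fold (IER5 probe 2, EGR1 and DUSP1; 7.44% of all probes) and 1 of 10 was higher (IER5 probe 1; 9.85%).

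**Figure D4:**
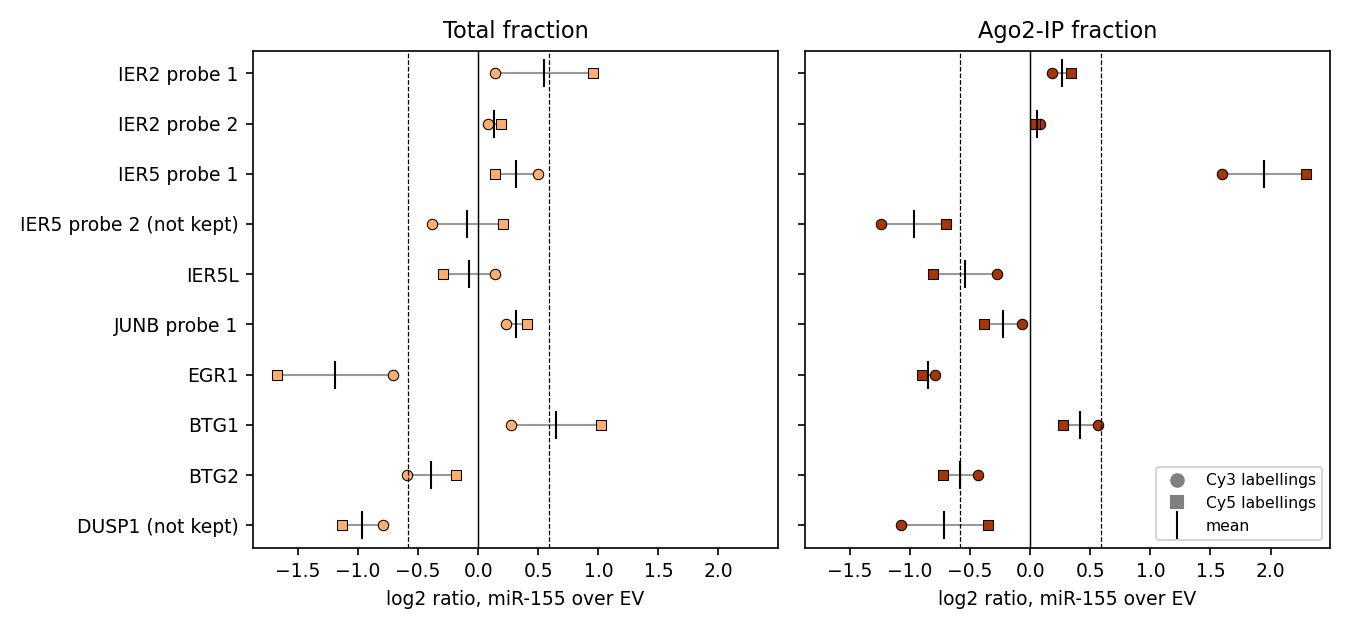
Log2 ratio of miR-155 over EV signal in the total fraction (left) and in the Ago2-IP fraction (right) for the 10 probes detected in at least 4 channels, with a circle for the Cy3 labellings, a square for the Cy5 labellings and a bar for their mean. Dashed lines mark a 1.5-fold change. IER5 probe 1, which was selected on its IP/T ratios, is the highest in the IP fraction (3.86-fold). EGR1 (0.438) and DUSP1 (0.512) are lower in the total fraction, each with a Cy5 labelling that was not detected.

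Promoter sequence was compared across the genes because the early response is transcriptional. RefSeq promoters were found for 9 of the 10 genes, all but IER3, and both strands were searched. Within the window searched, the CArG box occurred in EGR1 alone, as it did in 1.29% of all 27305 promoters. Sites further from the start were not searched, so the other genes may hold one there. The letters TGACG, which the full element TGACGTCA contains on both strands, occurred in 7 of 9 promoters (IER2, FOS, JUNB, EGR1, BTG1, BTG2 and DUSP1), beside 25.0% of all, and the TATA letters TATAAA in 4 of 9 (FOS, JUNB, BTG1 and DUSP1), beside 12.0% of all. The windows of IER5 and IER5L held none of the motifs searched. The FOS element, at chr14:75278754-75278778 on the plus strand with TGACG in capitals, is shown because FOS is the textbook gene for it.
FOS promoter: gttgagcccgTGACGtttacactca
A match is a description of these letters in these windows and was not related to the signals.

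The genes were set beside 4 lists of related genes, which, like the 10 genes, were chosen with results of these data known, and for which no test was run. Among 18 other early transcription factors, 16 were on the arrays and 6 probes of 5 genes were kept. Enrichment was seen for 4 of them in EV and for 6 in miR-155 cells, and the median ratios were 3.92 and 3.74. EGR2, the closest relative of EGR1 on the list, had ratios of 19.4 in EV and 13.8 in miR-155 cells, close to those of EGR1. Its total signals were dim as well, 41.0 in EV and 50.4 in miR-155 cells, and its ratios by normexp are not given. The miR-155/EV ratio of EGR2, 0.715, split into 0.501 with IP RNA in Cy3 and 1.02 with IP RNA in Cy5. The orphan nuclear receptor NR4A1 had 5.80 and 3.87 (miR-155/EV 0.668), and its total signal was 1.60-fold higher in miR-155 cells. The Krüppel-like factors KLF2 (4.08 and 3.93) and KLF10 (3.77 and 3.62) hardly differed between vectors. KLF6 went from 1.86 to 2.24 and from 1.60 to 2.08 on its probes, with miR-155/EV ratios of 1.20 and 1.30.

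Feedback inhibitors of the early response, 16 genes including other DUSP genes and the ZFP36 family, which speeds the decay of AU-rich transcripts, had the highest median IP/T ratios of the 4 lists. Of 12 kept probes of 8 genes, 9 reached a ratio of 2 in each vector, and the medians were 5.18 in EV and 4.29 in miR-155 cells. ZFP36 was the one probe of the 4 lists whose miR-155/EV ratio reached 2: its IP/T ratio went from 7.61 to 19.4 (2.55-fold; 2.09 with IP RNA in Cy3 and 3.11 with IP RNA in Cy5), with the IP signal 1.93-fold higher and the total signal at 0.758 in miR-155 cells. Unlike IER5 probe 1, ZFP36 was already enriched in EV cells. The phosphatase DUSP2 had 8.56 and 8.79 on one probe and 11.8 and 10.4 on the other. TNFAIP3, an inhibitor of NF-kappaB signalling, had 7.44 and 6.16, and ZFP36L2 had 7.36 and 7.66. ZFP36L1 had probes that disagreed in both vectors, at 6.37 and 6.32 on one and 0.856 and 0.863 on the other. The EGR corepressors NAB1 (2.21 and 2.74, and 3.85 and 2.98) and NAB2 (4.21 and 2.75, and 1.03 and 1.05) held the extremes of the miR-155/EV ratio below ZFP36, 1.24 for a NAB1 probe and 0.654 and 0.776 for a NAB2 and the other NAB1 probe.

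The partners of BTG1 and BTG2, the other BTG and TOB proteins with the CCR4-NOT deadenylase, had 22 kept probes of 13 genes, of which 6 reached an IP/T ratio of 2 in each vector (medians 1.16 and 1.15). The BTG and TOB members on kept probes were all enriched, BTG3 at 6.98 and 6.07, TOB2 at 5.62 and 6.06 and TOB1 at 3.06 and 2.84, so that BTG1 was the one family member on a kept probe without enrichment. Most deadenylase subunits lay near 1, and those past the fold were CNOT4 (4.57 and 3.38), CNOT6L (4.72 and 4.22) and 1 of 3 CNOT1 probes (2.29 and 2.54). The miR-155/EV ratio ran from 0.737 for CNOT10, whose total signal was at least 1.5-fold higher in miR-155 cells, and 0.739 for CNOT4 to 1.17 for a CNOT7 probe and 1.29 for CNOT8. The lowest IP/T ratios were those of CNOT3, 0.511 and 0.460.

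Genes upstream of the early response, 16 kept probes of 12 genes, were the least enriched list, with median IP/T ratios of 0.862 in EV and 0.927 in miR-155 cells. The kinase RPS6KA3 was enriched on 1 of its 2 probes (2.17 and 2.71), and the other read 0.868 and 0.877. SRF, the factor that binds CArG boxes, had on one probe the lowest miR-155/EV ratio of the list (0.673) and a total signal 1.57-fold higher in miR-155 cells, which its other kept probe did not share (0.986 and 1.15). HSF1, the heat shock factor that IER5 binds, stood at 0.771 and 0.637 (miR-155/EV 0.826) with a total change of 1.06. CREB1 (1.31) and a RPS6KA3 probe (1.25) had the highest miR-155/EV ratios. ELK1 (0.353 and 0.415) and a MAPK14 probe (0.477 and 0.514) had the lowest IP/T ratios, and the IP signal of RPS6KA2 was 0.646 times that of EV cells.

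**Figure D5:**
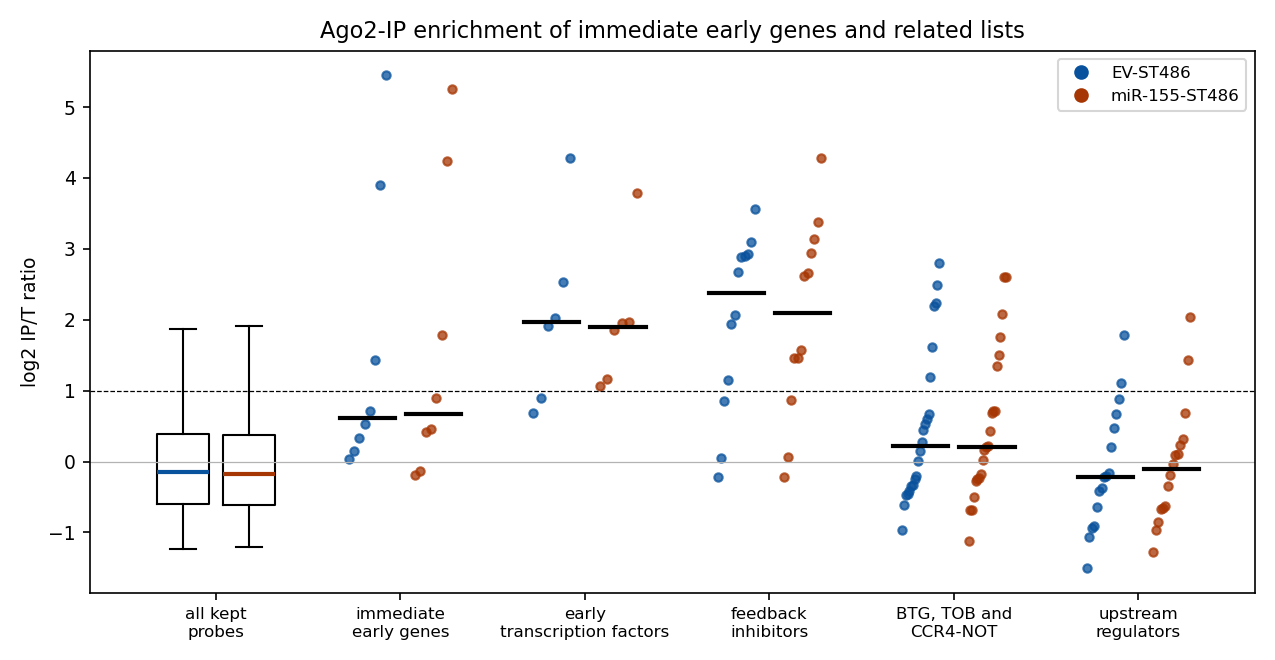
Log2 IP/T ratio of the kept probes in EV-ST486 (blue) and miR-155-ST486 cells (brown) for the immediate early genes and for the 4 related lists, each point a probe and each bar a median. Boxes show all kept probes with whiskers from the 5th to the 95th percentile, and the dashed line marks a ratio of 2; the feedback inhibitors have the highest medians (5.18 and 4.29) and the upstream regulators the lowest (0.862 and 0.927).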

How the data were processed

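Per the file headers, the authors deposited intensity values from Agilent Feature Extraction 10.5.1.1, already corrected for background and for dye within arrays. They also deposited filtered log2 values after quantile normalization, which served as an alternative. The deposited content of an array is the same under its Cy3 and Cy5 sample, and only the channel of the sample's own dye was read. Spots of a probe were averaged, signals below 1 set to 1, and log2 values quantile-normalized over the 8 channels. Following the study's methods, a probe was kept where at least 4 channels detected it (well above background, and positive and significant) and its labellings lay within 2-fold in every sample. Labellings were averaged on the log2 scale. Bounds for undetected probes used normexp (offset 50), loess and Aquantile, with high local backgrounds replaced. The dimmer sample entered at its own value or at the lowest signal among probes well above background, whichever was higher. For the IER3 and FOS bounds given, the own value was the higher. Of 14453 probes in the deposited log2 table, 14446 were kept here, and 99.9% of the values differed by at most 0.05. Of the 13 probes, 0 were saturated in any channel.

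The RefSeq identifiers of the arrays gave names to 23958 of 41000 probes. No coordinates were joined to probes. Sequences came from RefSeq tables (GRCh38.p14). The procedure was tested on simulated data. The genes and lists were chosen with earlier results of these data known, and all probes of the 10 genes are named. Of each related list are named the probes past a fold and the 2 highest and 2 lowest miR-155/EV ratios, and of the likest patterns the 5 nearest. A gene that this rule names is not reported here. The second probes of CNOT1, RPS6KA3, SRF, NAB2 and ZFP36L1 were named after their values were seen. Alternatives covered background correction, normalization, detection and dye filters, averaging, single orientations, outlier spots and thresholds. Precision is limited by the number of arrays. The tools were R 4.3.3 with limma 3.58.1, and Python 3.11.15 with pandas 2.3.3, numpy 2.4.6 and matplotlib 3.10.9.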

Additional observations from a re-analysis of the deposited data

How the results depend on the processing

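Over the summary values and their alternatives, 48 stayed within 1.5 times for a count, or within the spread of the labellings for the ratio. The other 9 moved further. Some of these agreements were fixed in advance. The detection and dye filters decide only whether a probe is kept, so under them the IER5 ratio could not move from 3.09. The authors' deposited values nearly repeat the main processing, as 99.9% of them differed by at most 0.05. Among those 48 the counts of enriched probes still ranged between 2 and 4. No ratio that had been past a fold turned around. The miR-155/EV ratio of IER5 probe 1 (3.09) was 2.57 by normexp with quantile normalization, and 3.50 and 3.30 by normexp with high local backgrounds replaced. It was between 2.75 and 3.48 with 1 dye orientation alone. The count of enriched probes in EV cells (3 of 8) was 1 of 10 by normexp with quantile normalization and 1 of 5 without quantile normalization, and that in miR-155 cells (3 of 8) was 1 of 5 by normexp with high local backgrounds replaced, loess and Aquantile. The count of probes changed 1.5-fold in the total fraction (2 of 8) was 0 of 10 by normexp with quantile normalization, 1 of 8 with high local backgrounds replaced, 1 of 6 with detection in all 8 channels and 1 of 8 at a 2-fold threshold. Without quantile normalization it was 5 of 5, with the median of all total changes shifted by 0.44 on the log2 scale; relative to that median it was 1 higher and 1 lower of 5, with BTG1 at 1.58 and EGR1 at 0.396. The normexp offset lifts dim signals by construction. At the same offset and with quantile normalization, some values also changed when high local backgrounds were replaced. The EV IP/T ratio went from 1.46 to 2.46 for JUNB probe 1 and from 17.4 to 31.6 for BTG2, but only from 1.01 to 1.04 for IER5L. Whether anything else moved the values was not tested. Matching probes by a printed gene symbol was not run, because the tables used here hold no such column. No paired analysis was possible because each condition has 1 RNA sample and the numbers only name its labellings.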
